A study of Mus musculus with 6 samples.

Results

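Cytosolic sulfotransferases transfer a sulfonate group from the donor PAPS (3′-phosphoadenosine 5′-phosphosulfate) to hydroxyl or amine groups of phenols, steroids, bile acids and drugs, which makes them more soluble in water and readier for excretion. The liver is a main site of this reaction, and in the mouse several of the genes are read at very different levels in males and females. PAPS is built from sulfate by the PAPS synthases Papss1 and Papss2, and its by-product is cleared by the phosphatases Bpnt1 and Impad1. Sulfatases take the sulfate group off again.

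7 genes were followed, chosen by symbol from the 18444 genes listed in the deposited tables: Sult1a1 (gene ID 20887), Sult1b1 (56362), Sult1d1 (53315), Sult1e1 (20860), Sult2a1 (20859), Sult3a1 (57430) and Sult5a1 (57429). The rule for the choice uses symbols and no measured value. Of 14 other cytosolic sulfotransferase symbols that were looked up, 7 were listed and 7 were not. Of the 7 genes followed, 4 (Sult1a1, Sult1b1, Sult1d1 and Sult5a1) had at least 20 counts in every library, and Sult1e1, Sult2a1 and Sult3a1 had 0 to 11.

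The liver RNA of male mice, C57BL/6 by the labels and C57BL/6J by the methods of the study, 6 to 8 weeks old by the labels, was sequenced in 6 libraries, 1 for each condition, and the groups held 6 mice each. In the diet model, SD stood for a standard chow diet, HFD for a high fat diet given for 16 weeks (labelled NASH, nonalcoholic steatohepatitis, while the methods of the study take this diet alone as a model of fatty liver disease), and HFD plus JT003 for the same diet with JT003, a peptide agonist of both adiponectin receptors, at 0.5 mg/kg daily for 4 weeks. In the CCl4 model, mice received corn oil, or CCl4 (carbon tetrachloride, labelled liver fibrosis) in oil for 6 weeks, or CCl4 plus JT003 at 0.5 mg/kg daily for 3 weeks. The methods give 6 to 8 weeks as the age of the mice used. The high fat diet alone lasted 16 weeks, so this cannot be the age of the HFD mice at sampling. The models ran for unlike times, so age at sampling may differ between them. Whether a library held RNA of 1 mouse or of several is not stated in the sources used here. With 1 library per condition no spread between mice can be measured, so each test below compares 2 libraries and not 2 conditions, and each interval covers counting error only.

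Each library held 19374236 to 20184557 counts. The summed FPKM (sequenced fragments scaled to transcript length and library depth) of 8 hepatocyte genes was between 40800 and 54200 in the 6 libraries. The kidney markers Slc34a1 and Slc12a1 and the intestinal marker Alpi were not listed in any library. Other genes of these lists had reads: in SD, Lrp2 (kidney) had 97 counts, and Fabp2 and Lgals4 (intestine) had 2026 and 930. Umod (kidney) and Vil1 (intestine) had 0 counts in SD. In bulk liver, fewer cells of a type and less RNA per cell cannot be told apart. A gene was called when a two-sided exact binomial test between 2 libraries gave an adjusted p-value under 0.001 over all genes with reads and the log2 ratio of scaled counts reached 1 in size. Counts were scaled by TMM (trimmed mean of M values). With total reads as the scale in its place, the median log2 ratio of all genes moved from -0.00 to 0.12 between SD and HFD, from 0.00 to 0.23 between corn oil and CCl4, from -0.00 to 0.13 between SD and HFD plus JT003 and from 0.03 to 0.32 between corn oil and CCl4 plus JT003.

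Sult1b1, Sult1d1 and Sult1e1 follow each other on mouse chromosome 5, all on the minus strand, with no other protein-coding gene between them in the RefSeq annotation. Of these neighbours, Sult1b1 and Sult1d1 were called higher in the HFD library, and Sult1e1 was the one of the 7 genes whose level differed most between sources of CCl4 counts. The 300 bases around their start sites (250 before to 50 after) are given below from RefSeq on the GRCm38.p6 build, 5′ to 3′ on the strand of the gene, beside that of Sult5a1 on chromosome 8, which was also called higher with the diet. Capitals mark matches, on either strand, to any of the motifs searched: the TATA box TATAAA, the CCAAT box CCAAT, the nuclear receptor half-site AGGTCA, the FOXA core TGTTTAC and the HNF1 half-site GTTAAT.
Sult1b1, chr5:87538146-87538445, minus strand: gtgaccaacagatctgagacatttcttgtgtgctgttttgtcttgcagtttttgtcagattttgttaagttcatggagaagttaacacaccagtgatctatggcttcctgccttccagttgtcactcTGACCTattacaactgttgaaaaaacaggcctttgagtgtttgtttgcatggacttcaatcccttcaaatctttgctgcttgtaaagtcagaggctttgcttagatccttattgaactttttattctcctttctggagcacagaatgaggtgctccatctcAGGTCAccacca
Sult1d1, chr5:87568957-87569256, minus strand: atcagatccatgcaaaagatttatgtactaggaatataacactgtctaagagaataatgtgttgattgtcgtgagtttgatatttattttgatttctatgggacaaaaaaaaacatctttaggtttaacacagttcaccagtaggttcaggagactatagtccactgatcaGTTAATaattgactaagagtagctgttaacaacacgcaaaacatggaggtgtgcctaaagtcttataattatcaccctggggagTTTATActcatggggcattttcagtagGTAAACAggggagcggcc
Sult1e1, chr5:87591562-87591861, minus strand: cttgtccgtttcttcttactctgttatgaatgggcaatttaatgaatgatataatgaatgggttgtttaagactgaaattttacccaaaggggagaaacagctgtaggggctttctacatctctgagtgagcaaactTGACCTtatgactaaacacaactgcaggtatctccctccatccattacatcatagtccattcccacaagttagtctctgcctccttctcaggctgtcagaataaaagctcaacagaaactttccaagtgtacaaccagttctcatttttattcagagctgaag
Sult5a1, chr8:123158231-123158530, minus strand: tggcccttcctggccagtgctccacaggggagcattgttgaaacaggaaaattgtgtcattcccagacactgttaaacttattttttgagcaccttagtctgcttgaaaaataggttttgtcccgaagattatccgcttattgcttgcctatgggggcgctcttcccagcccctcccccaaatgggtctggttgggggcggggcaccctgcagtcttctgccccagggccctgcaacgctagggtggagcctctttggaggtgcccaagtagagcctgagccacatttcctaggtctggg

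The Sult1b1 window held AGGTCA from base 39 after the start site and, on the opposite strand, from base -123, and the Sult1e1 window held it on the opposite strand from base -113. RefSeq gives Sult1b1 a second start site with the window chr5:87536173-87536472, in which no motif searched was found. The half-site occurred in 16.3% of 32851 promoter windows of this length. The Sult1d1 window held GTTAAT from base -79, TATAAA on the opposite strand from base 6 and TGTTTAC on the opposite strand from base 33. Of all windows, 7.1% held GTTAAT, 13.6% held TATAAA and 3.65% held TGTTTAC. The CCAAT box, found in 37.4% of all windows, was in none of the 4 sequences, and no motif searched was in the Sult5a1 window. These matches describe the letters of the windows and say nothing of binding.

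Sult1a1, a phenol sulfotransferase, was the most abundant of the 7 genes in every library. Its level was 83.61 FPKM in SD, 117.74 in HFD, 164.58 in HFD plus JT003, 166.65 in corn oil, 132.45 in CCl4 alone and 200.41 in CCl4 plus JT003. It made up 69.5% to 83.7% of the summed FPKM of the 7 genes, with the lowest share in HFD and the highest in SD. The span of its levels, 2.4-fold from the lowest to the highest library, was the narrowest of the 4 abundant genes.

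Sult1d1, known for sulfating catecholamines such as dopamine, came second in level in every library. It was at 9.90 FPKM in SD, 30.99 in HFD, 49.59 in HFD plus JT003, 26.41 in corn oil, 40.29 in CCl4 alone and 39.68 in CCl4 plus JT003. Its 5.01-fold span was the widest of the 4 abundant genes, with SD far below the other 5 libraries. Its share of the summed FPKM of the 7 genes went from 9.91% in SD to 21.8% in CCl4.

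Sult1b1, which sulfates thyroid hormones and small phenols, was at 4.25 FPKM in SD, 11.96 in HFD, 10.63 in HFD plus JT003, 5.47 in corn oil, 6.02 in CCl4 alone and 5.29 in CCl4 plus JT003. Both HFD libraries stood above the other 4. Sult5a1 was at 1.94 FPKM in SD, 8.12 in HFD, 5.97 in HFD plus JT003, 4.39 in corn oil, 5.32 in CCl4 alone and 3.78 in CCl4 plus JT003. Here too the order was led by HFD and ended with SD.

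The other 3 genes were near the limit of detection in these livers of male mice. Sult1e1, the estrogen sulfotransferase, had 2 counts in SD, 10 in HFD, 11 in HFD plus JT003, 2 in corn oil, 5 in CCl4 alone and 5 in CCl4 plus JT003, or at most 0.44 FPKM. Sult2a1, a hydroxysteroid sulfotransferase that is read mainly in female mouse liver, had 0 to 7 counts, with the 7 in CCl4 plus JT003. Of the 50-base stretches of its transcript, 33.2% were shared with other sulfotransferase genes, with Sult2a2 sharing the most. Its counts could be split among such genes and are uncertain. Sult3a1, which sulfates amines, had 2 counts in HFD, 1 in corn oil, 1 in CCl4 plus JT003 and 0 in the other libraries. A count of 0 allows up to 3 counts in a library.

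**Figure D1:**
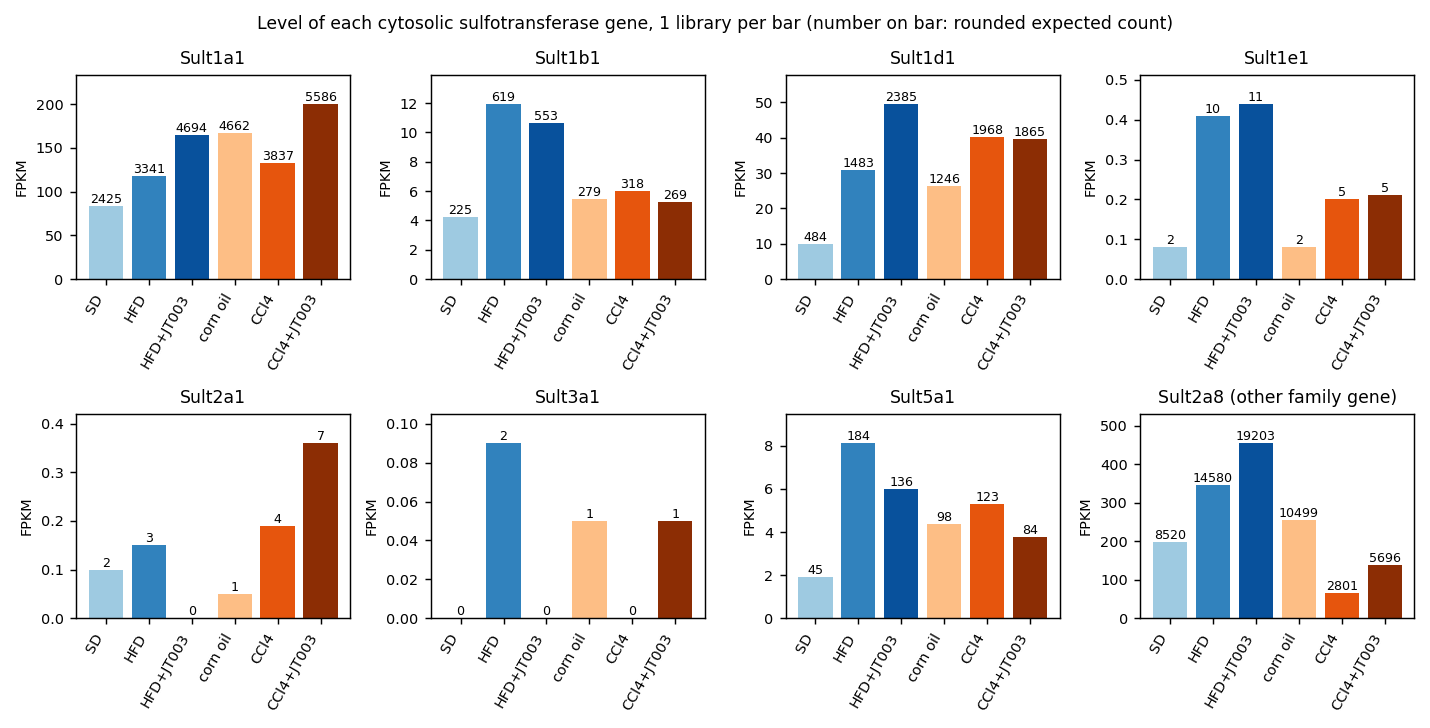
Level in FPKM (y axis, 1 scale per panel) of the 7 genes and of Sult2a8 in each of the 6 libraries (x axis), with the rounded expected count above each bar. There is 1 library per bar and no error bar. Sult1a1, Sult1b1, Sult1d1 and Sult5a1 are lowest in SD, and Sult2a8 is lowest in CCl4 at 65.93 FPKM.

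Ordered by counts scaled over all 6 libraries, several neighbours in rank did not differ beyond counting error. For Sult1b1 these were corn oil and CCl4, and CCl4 plus JT003 and SD. For Sult1d1 they were HFD and corn oil, at a log2 ratio of 0.01 (95% interval -0.10 to 0.12). For Sult5a1 the libraries HFD plus JT003, CCl4 and corn oil could not be ordered. All neighbours of Sult1a1 differed, but the order of its top pair depended on the scale: CCl4 plus JT003 was highest in FPKM, and corn oil was highest in scaled counts, at 274 against 260 CPM (counts relative to the scaled size of the library).

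The 7 genes held 33.4% of the summed FPKM of all listed cytosolic sulfotransferases in SD, 32.5% in HFD, 33.4% in HFD plus JT003, 44.2% in corn oil, 73.2% in CCl4 alone and 63.7% in CCl4 plus JT003. Nearly all of the rest was Sult2a8 (gene ID 76971), a bile acid sulfotransferase of mouse liver. The CCl4 libraries were thus the ones in which the 7 genes outweighed Sult2a8. Their own summed level was 203 FPKM with corn oil, 184 with CCl4 and 250 with CCl4 plus JT003, while that of Sult2a8 was 254.66, 65.93 and 139.38.

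The first comparison sets the HFD library against the SD library. Sult1b1, Sult1d1 and Sult5a1 were higher in the HFD library than in SD, by 2.58-, 2.88- and 3.84-fold in scaled counts, and Sult1a1 was higher by 1.29-fold. Sult1b1 had 225 counts in SD and 619 in HFD, a log2 ratio of 1.36 (95% interval 1.15 to 1.60). Sult1d1 had 484 and 1483 counts, a log2 ratio of 1.52 (1.38 to 1.68). Sult5a1 had 45 and 184 counts, a log2 ratio of 1.90 (1.46 to 2.44). The adjusted p-values of the exact test were 9.3e-37, 1.6e-102 and 3.3e-18 in that order.

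These were 3 of 7 genes called higher and 0 called lower, where 2.92% of the 16973 genes tested were called higher and 2.46% lower. In all, 495 genes were called higher and 418 lower, and with total reads as the scale 624 and 329, under which the same 3 genes were called higher. The median log2 ratio was 1.52 over the 5 genes with more than 3 counts in either library and 1.36 over all 7, beside -0.00 for all genes. For Sult1a1 the ratio of 0.37 (0.30 to 0.45) stayed below the threshold of size, with 2425 counts in SD and 3341 in HFD. Sult1e1, with 2 and 10 counts, had an interval from 0.00 to 5.46 and was not called. If libraries of a condition varied with a biological coefficient of variation (BCV) of 0.2, none of the 7 genes would be called.

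Markers of other cell types also moved between SD and HFD. Of 9 stellate cell genes, 5 were called higher, and their summed level was 17.9 FPKM in SD and 46.1 in HFD. Cfd, read in fat tissue, had 2 counts in SD and 454 in HFD and was called higher, while the adipocyte gene Adipoq was at 0 in both libraries. Macrophage markers summed to 120 and 128 FPKM, with 0 of 7 called. The part of these cells in the levels of Sult1b1, Sult1d1 and Sult5a1 was not tested.

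Among the other family members, Sult1c2 (gene ID 69083) was called higher, with 21 counts in SD and 104 in HFD, a log2 ratio of 2.12 (1.53 to 2.97). Sult2a8 had 8520 and 14580 counts, a log2 ratio of 0.68 (0.65 to 0.72) that was not called. The 2.92% background holds for these as well, and 1 of 4 other family genes with reads was called.

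With JT003 on top of the diet, Sult1a1 and Sult1d1 were somewhat higher and Sult1b1 and Sult5a1 somewhat lower, and none of these differences reached the threshold. Sult1a1 had 3341 counts in HFD and 4694 in HFD plus JT003, a log2 ratio of 0.47 (0.40 to 0.53). Sult1d1 had 1483 and 2385 counts, a log2 ratio of 0.66 (0.57 to 0.76). Both intervals lie above 0 and below 1. The ratio of Sult1b1 was -0.18 (-0.35 to -0.02) with 619 and 553 counts, and that of Sult5a1 was -0.45 (-0.79 to -0.13) with 184 and 136 counts. Of the 7 genes 0 were called in either direction, where 0.743% of 17090 genes were called higher (127 genes) and 0.884% lower (151 genes). Their median log2 ratio was 0.10 over the 5 genes with more than 3 counts in either library. It was -0.18 over all 7, where the sign rests on the 2 to 3 counts of Sult2a1 and Sult3a1 in HFD. The median of all genes was -0.01.

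Set against SD instead, the HFD plus JT003 library held the same 3 genes called higher as HFD. Sult1d1 was 4.55-fold higher, a log2 ratio of 2.18 (2.05 to 2.33). Sult5a1 was at 1.44 (0.99 to 2.0) and Sult1b1 at 1.18 (0.96 to 1.41). Sult1a1 was at 0.84, short of the threshold. In this comparison 3.16% of 17012 genes were called higher and 2.76% lower, or 538 and 470 genes, and with total reads 722 and 362. The comparisons with HFD and with SD share libraries, so their values are not independent.

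**Figure D2:**
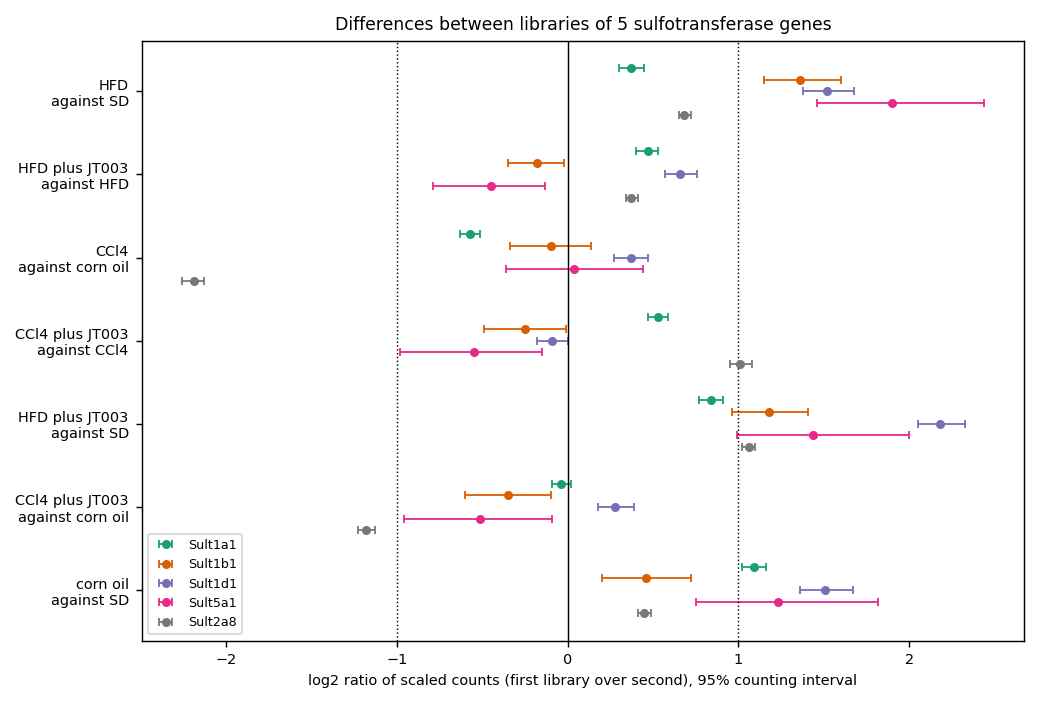
Log2 ratio of scaled counts (x axis) of Sult1a1, Sult1b1, Sult1d1, Sult5a1 and Sult2a8 in 7 comparisons between libraries (y axis). Points are the ratios, bars the 95% counting intervals, which hold no spread between mice, and dotted lines the threshold of 1 in each direction. Sult1b1, Sult1d1 and Sult5a1 lie above 1 between HFD and SD, and Sult1d1 lies as high between corn oil and SD.

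In the second model, the CCl4 library was set against the corn oil library. None of the 7 genes was called between corn oil and CCl4, where 4.76% of 17234 genes were called higher and 2.41% lower. Sult1a1 had 4662 counts in corn oil and 3837 in CCl4, a log2 ratio of -0.57 (-0.63 to -0.51). Sult1d1 had 1246 and 1968 counts, a log2 ratio of 0.37 (0.27 to 0.47). For Sult1b1, at -0.10 (-0.34 to 0.14) with 279 and 318 counts, and for Sult5a1, at 0.04 (-0.36 to 0.44) with 98 and 123 counts, the interval spanned 0. The direction for Sult1b1 turned to 0.13 with total reads as the scale. The median was 0.20 over the 6 genes with more than 3 counts in either library and 0.04 over all 7, beside 0.00 for all genes. In all, 821 genes were called higher and 416 lower, and 1224 and 271 with total reads.

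Sult2a8 differed from the 7 genes in this comparison: it had 10499 counts in corn oil and 2801 in CCl4, a log2 ratio of -2.19 (-2.26 to -2.13), and was called lower. Of 9 genes read mainly around the central vein, 4 were called lower and 0 higher: Glul at -3.21, Cyp2e1 at -2.24, Oat at -4.78 and Slc1a2 at -9.03. Lgr5 at -0.92 was not called, nor were Axin2 at 0.66, Cyp1a2 at 0.59, Rgn at 0.11 and Gulo at 0.08, whose ratios lay above 0. Of 12 genes read at higher levels in male liver, 11 were called lower, with a median of -3.24. Macrophage markers (5 of 7), cholangiocyte markers (4 of 6) and stellate cell genes (3 of 9) were called higher with CCl4. The part of any of these lists in the levels of Sult2a8 or of the 7 genes was not tested.

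With JT003 added to CCl4, Sult1a1 was higher and Sult5a1 lower, and again none of the 7 genes was called, where 1.91% of 17393 genes were called higher (332 genes) and 2.51% lower (436 genes). Sult1a1 had 3837 counts in CCl4 and 5586 in CCl4 plus JT003, a log2 ratio of 0.53 (0.47 to 0.59), beside 0.47 in the diet model. With the CCl4 counts that remain in the authors' pooled column without this library, the ratio of Sult1a1 was 0.05 and that of Sult5a1 turned to 0.18. Sult5a1 had 123 and 84 counts, a log2 ratio of -0.55 (-0.98 to -0.15). Sult1b1 was at -0.25 (-0.49 to -0.01) with 318 and 269 counts. For Sult1d1 the ratio was 0.66 with JT003 on the diet and -0.09 (-0.18 to 0.00) with JT003 on CCl4, a difference of 0.75 that was not tested. Sult2a8 was called higher at 1.01 (0.95 to 1.08), with 2801 and 5696 counts. Sult2a2 was at 0 counts with corn oil, 3 with CCl4 and 17 with both CCl4 and JT003. It was not called between CCl4 and CCl4 plus JT003.

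Between corn oil and CCl4 plus JT003, Sult1a1 was at -0.04 (-0.09 to 0.02) and at 0.26 with total reads as the scale. Sult1d1 was at 0.28 (0.18 to 0.39), Sult1b1 at -0.35 (-0.60 to -0.10) and Sult5a1 at -0.51 (-0.96 to -0.09). None of the 7 genes was called, where 3.23% of 17338 genes were called higher and 1.72% lower. These were 560 and 299 genes, and 1065 and 177 with total reads. Sult2a8 remained below corn oil, at -1.18, and was called lower. Sult2a2, with 0 and 17 counts, was called higher, at least 4.61-fold against 3 counts in the corn oil library. Of the 50-base stretches of the Sult2a2 transcript, 62.1% are shared with other sulfotransferase genes, with Sult2a1 sharing the most, so this value is uncertain.

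For Sult1d1 the control libraries of the models differed from each other as much as HFD differed from SD. Between SD and corn oil it was 2.86-fold higher in corn oil, a log2 ratio of 1.51 (1.36 to 1.67), beside 1.52 between SD and HFD. Sult5a1 was at 1.23 (0.75 to 1.82) and Sult1a1 at 1.09 (1.02 to 1.16), and all 3 were called higher, Sult1a1 no longer so with total reads, at 1.00. Sult1b1 was at 0.46 (0.20 to 0.72) and was not called. In this comparison 2.18% of 17018 genes were called higher and 3.24% lower, or 371 and 551 genes, and 303 and 711 with total reads. The median was 1.16 over the 4 abundant genes and 0.61 over all 7, the others having at most 2 counts in both libraries, beside 0.04 for all genes. Diet, oil injections, age at sampling and any difference in handling cannot be told apart here. The diet model ran for 16 weeks and the CCl4 model for 6. SD was the lowest library for all 4 abundant genes. The macrophage markers also differed between these controls: 7 of 7 were called lower in corn oil, with a summed level of 120 FPKM in SD and 26.1 in corn oil. Of the fat tissue genes, Cfd had 2 counts in SD and 175 in corn oil and was called higher, and Adipoq had 0 and 11 and Plin1 1 and 6, which were not called. The summed level of this list was 0.14 and 10.5 FPKM. The cholangiocyte gene Krt19 was called higher at 2.30, 1 of 6 on its list, and the endothelial gene Kdr lower at -1.55, also 1 of 6. The part of these lists in the result was not tested.

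A further CCl4 column among the deposited comparison tables gave a check on the single CCl4 library. Its counts sum to 2.97 times those of the library, and they appear to be pooled over several CCl4 libraries with this one among them, which is inferred from the values. Taking the library's own counts off the pooled ones leaves the remaining CCl4 counts, which are the authors' pooled values, without SD or n. Sult1e1 had 5 counts in the CCl4 library and 122 in the remainder, 0.239 and 2.84 CPM, a log2 ratio of library over remainder of -3.27 (-5.22 to -2.31). It was called lower in the library, as were 1.5% of 17471 genes (262 genes), while 0.206% (36 genes) were called higher. Against the remainder, corn oil and CCl4 plus JT003 would both have been called lower in Sult1e1: CCl4 over corn oil was at 3.97 (2.69 to 7.64), and CCl4 plus JT003 over CCl4 at -3.26 (-5.21 to -2.30).

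The other genes moved less with the source of the CCl4 counts. Sult1a1 had 183 CPM in the library and 261 in the remainder, so that CCl4 over corn oil went from -0.57 to -0.09 (-0.14 to -0.04), and CCl4 plus JT003 over CCl4 from 0.53 to 0.05 (0.00 to 0.09). Sult5a1 turned its direction, from 0.04 to -0.70 (-1.09 to -0.33) for CCl4 over corn oil and from -0.55 to 0.18 (-0.22 to 0.58) for CCl4 plus JT003 over CCl4. Sult1d1 kept its sign, at 0.55 (0.46 to 0.64) and -0.28 (-0.35 to -0.20). Sult1b1 was at 0.04 and -0.39, with an interval of -0.16 to 0.24 for the first. Sult2a8 hardly moved, at -2.24 and 1.06.

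Other gene lists also differed between the library and the remainder. Macrophage markers summed to 145 CPM in the library and 301 in the remainder, with 3 of 7 called lower in the library, and neutrophil markers to 6.97 and 15.7, with 4 of 5 called lower. Adipocyte markers were low in both, at 0.143 and 0.535 CPM, with 1 and 3 counts of Adipoq. Of 12 genes of male liver, 2 were called lower in the library, and of 14 tested genes of female liver, 2 were called higher and 1 lower. Their part in the level of Sult1e1 was not tested.

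**Figure D3:**
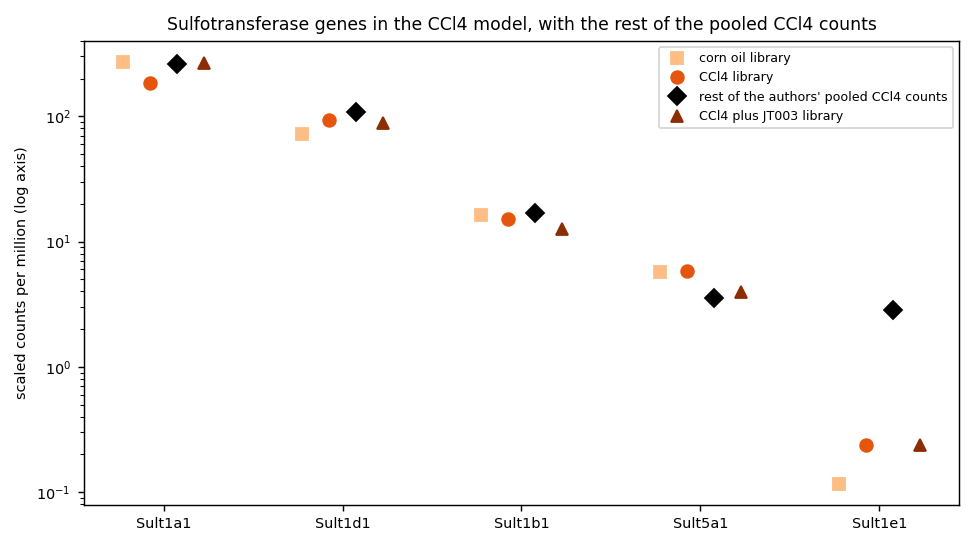
Scaled counts in CPM (y axis, log scale) of 5 genes (x axis) in the corn oil, CCl4 and CCl4 plus JT003 libraries and in the rest of the authors' pooled CCl4 counts, which were scaled in a fit of their own. Each point is a single value without error. Sult1e1 stands at 2.84 in the rest of the pooled counts and at 0.239 in the CCl4 library.

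The genes that supply the donor and those that act beside the sulfotransferases were described from lists. Of 9 genes of PAPS supply, 8 or 9 had reads, and 0 were called in any of the 4 comparisons of a model or of JT003. Of all genes, 0.743% to 4.76% were called higher in these comparisons and 0.884% to 2.51% lower. Papss2, the main PAPS synthase of liver, went from 2448 counts with corn oil to 5429 with CCl4, and stood at 2961 where JT003 was added. The ratios on the log2 scale were 0.86 (0.79 to 0.93) with CCl4 and -0.88 (-0.95 to -0.82) with JT003 on CCl4, just short of the threshold. In the diet model Papss2 counted 1992 for SD, 2546 for HFD and 3882 for HFD plus JT003. Papss1 was at 0.69 with the diet, -0.60 with JT003 on the diet, 0.67 with CCl4 and -0.59 with JT003 on CCl4. The medians of the list in those 4 comparisons over the 7 or 8 genes with more than 3 counts in either library were 0.05, 0.06, 0.42 and -0.42, beside medians of all genes from -0.01 to 0.00.

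Cysteine is a source of sulfate through its oxidation, and several genes of cysteine and sulfide metabolism were called. Cdo1 and Suox, of the same list, were not called with the diet, with CCl4 or with JT003. Csad, which leads cysteine sulfinate to taurine, had 8381 counts in SD and 1597 in HFD, a log2 ratio of -2.48. Cth, which makes cysteine from cystathionine, was at -1.43 in the same comparison and at -1.19 with CCl4. With JT003 on the diet, Cbs, which makes cystathionine, was at -1.10 and Ethe1, a sulfur dioxygenase of mitochondria, at -1.09. Sqrdl, which oxidises sulfide, was at 1.09 with CCl4. In all, 2 of 9 genes were called lower with the diet, 2 of 9 lower with JT003 on the diet, 1 lower and 1 higher with CCl4, and 0 with JT003 on CCl4. Of all genes, 2.46%, 0.884% and 2.41% were called lower in the first 3 of these comparisons, and 4.76% higher with CCl4.

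Another list held 9 genes, of sulfatases and of the sulfatase-modifying factors Sumf1 and Sumf2. In it, Arsb at 1.00 and Galns at 1.66, both lysosomal, were called higher with CCl4, and Arsb was called lower with JT003 on CCl4, at -1.03. Among 11 membrane-bound sulfotransferases, which act on glycans, lipids and proteins in the Golgi apparatus, the heparan sulfate enzymes Ndst1 at 1.01 and Hs2st1 at 1.00 were called higher with CCl4. Ndst1 was called lower with JT003 on CCl4, at -1.08, and Gal3st1, which makes sulfatide, was lower with the diet at -1.73. Of all genes, 4.76% were called higher with CCl4, 2.51% lower with JT003 on CCl4 and 2.46% lower with the diet. The log2 ratio of Ndst1 between SD and corn oil was -1.92, larger than that with CCl4.

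Of 14 transcription factors known to act on sulfotransferase genes or on drug metabolism, 1 was called higher and 0 lower in each of the 4 comparisons, where 2.92%, 0.743%, 4.76% and 1.91% of all genes were called higher. Ahr, the receptor for dioxin and related compounds, was higher with the diet, with 335 counts in SD and 893 in HFD, at 1.32 (1.14 to 1.51). Nr1i3, the constitutive androstane receptor, was higher with JT003 on the diet, with 2139 counts in HFD and 5387 in HFD plus JT003, at 1.31 (1.24 to 1.38). Nfe2l2, a regulator of the antioxidant response, was higher with CCl4, at 1.19. Esr1, the estrogen receptor, was higher with JT003 on CCl4, with 174 and 361 counts, at 1.03 (0.78 to 1.31).

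**Figure D4:**
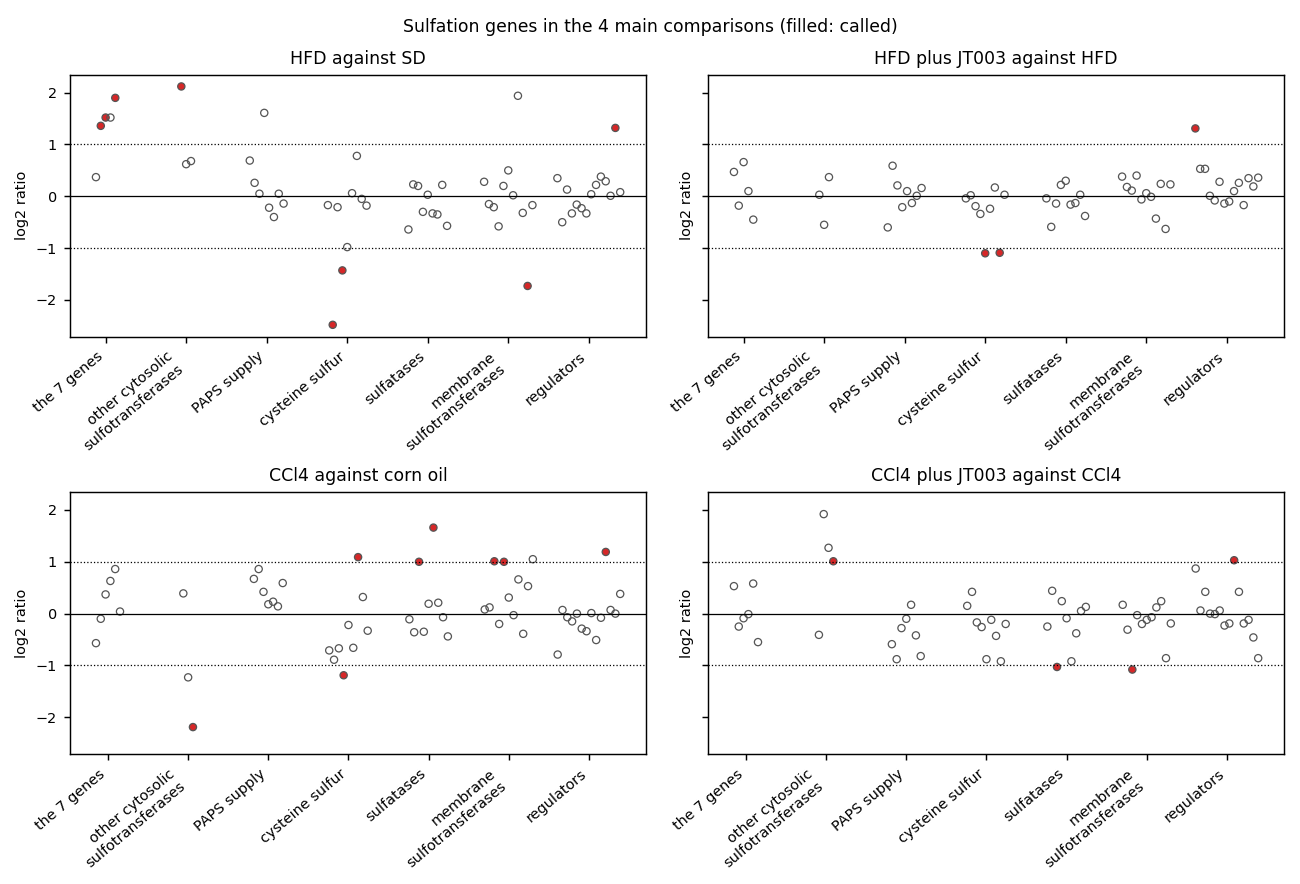
Log2 ratios of scaled counts (y axis) of the genes of 7 lists (x axis) in the 4 comparisons of a model or of JT003, 1 point per gene, filled where the gene was called. Genes with at most 3 counts in both libraries are left out, and dotted lines mark the threshold of 1. Of the 7 sulfotransferase genes, 3 are filled between HFD and SD and none in the other panels.

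Levels across the 6 libraries were set beside those of 10279 genes with at least 100 counts in a library, by the root mean square difference of centred log2 levels. This likeness is a description over 6 libraries that share controls and treatments. Nearest to Sult1b1 was Pparg at 0.11, the lipid-related nuclear receptor, followed by Magt1 at 0.12 and Cela1 at 0.14. Pparg counted 100 for SD, 275 for HFD, 248 for HFD plus JT003, 147 for corn oil, 133 for CCl4 and 115 for CCl4 plus JT003. Among the genes nearest to Sult1d1 were Insig1 at 0.23 and 1810011O10Rik at 0.24. Nearest to Sult5a1 were F11 at 0.21, Plekhf1 at 0.22 and Slc50a1 at 0.23, and nearest to Sult1a1 were Atp5sl at 0.09, Mms19 at 0.10 and Prdm9 at 0.12.

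Among the sulfotransferases themselves, Sult1b1 and Sult5a1 were the most alike pair of the 4 abundant genes, at 0.31, although they lie on different chromosomes. The chromosome 5 neighbours Sult1b1 and Sult1d1 differed by 0.63. Sult2a8 was at 0.74 to 1.20 from the 4 genes, and the gene nearest to it was Cyp2e1, at 0.10.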

How the data were processed

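Liver RNA was sequenced in 6 libraries on the BGISEQ platform, 1 per condition. For every library the authors deposited expected counts and FPKM values of the genes. The labels' processing notes name HISAT, Bowtie2, RSEM and the mouse build mm9, without versions or roles. Of 4 comparison tables by the authors, which hold their fold changes and p-values, 3 were not used. The pooled CCl4 column of the other gave an alternative, and 7 other expression columns were not used.

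Expected counts were rounded to whole numbers and scaled by TMM (edgeR 4.0.16 under R 4.3.3), using the 3 libraries of each model, or over all 6 for corn oil against SD. Genes with 1 read or more entered a two-sided exact conditional binomial test that doubles the smaller tail (scipy 1.17.1, Python 3.11.15), with Benjamini-Hochberg adjustment over all such genes. A call needed both an adjusted p-value below 0.001 and a log2 ratio, computed with a prior count of 2, that reached 1 in either direction. Log2 ratios carry 95% Clopper-Pearson intervals, and no ratio of a single gene was given where both libraries had at most 3 counts. Medians over all 7 sulfotransferases include such genes. FPKM was used to compare levels, and log2 ratios of FPKM with 0.1 or 1 added were computed as an alternative. The test was first run on simulated data. DESeq2 1.42.0 gave alternative size factors.

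All 7 sulfotransferases were named. Of the other lists, genes called in at least 1 of the 4 main comparisons were named, a few per list. Cdo1, Suox, Papss1, Papss2 and the counts of marker genes were chosen after their values were seen. The sulfotransferases, the gene lists and the comparisons were chosen with earlier results of these data known. Promoter sequences are from RefSeq (GRCm38.p6), a different build than that of the files. Promoter windows were found for 6 of the 7 genes, with none for Sult2a1.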

Additional observations from a re-analysis of the deposited data

Results flagged for a closer look

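Sult1a1 had opposite signs in the 2 models, with both intervals away from 0. Its log2 ratio was 0.37 between SD and HFD and -0.57 between corn oil and CCl4. The difference of 0.94 was not tested, since each condition is 1 library. With the remaining CCl4 counts the second value was -0.09. Neither value reached the threshold of 1.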

How the results depend on the processing

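No paired analysis was possible because each condition is 1 library and the labels give no replicate numbers that link libraries. Each condition having 1 library, none was left out in turn.

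Without the threshold on size, the genes called went to 3967 (HFD against SD), 2422 (HFD plus JT003 against HFD), 4492 (CCl4 against corn oil), 4180 (CCl4 plus JT003 against CCl4), 4544 (HFD plus JT003 against SD), 3548 (CCl4 plus JT003 against corn oil) and 4888 (corn oil against SD). With an assumed BCV of 0.2 they were 179, 19, 346, 165, 203, 138 and 105 in that order, and with 0.4 they were 11, 0, 59, 0, 5, 24 and 6. At an adjusted p-value under 0.05, HFD plus JT003 against HFD gave 460, and with at least 100 counts CCl4 plus JT003 against corn oil gave 556.

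Of the 7 sulfotransferases, an assumed BCV of 0.2 left 0 called between HFD and SD, 1 between HFD plus JT003 and SD (Sult1d1) and 0 between corn oil and SD. With 0.4 it left 0 in all 3 comparisons. Without the threshold on size, 4 were called with the diet, 2 with JT003 on the diet, 2 with CCl4, 1 with JT003 on CCl4 and 1 between CCl4 plus JT003 and corn oil. Many genes were called at this setting: 3967 of 16973 with the diet, 2422 of 17090 with JT003 on the diet and 4492 of 17234 with CCl4. For JT003 on CCl4 and for CCl4 plus JT003 against corn oil, the counts given above were of 17393 and 17338 genes tested. With the pooled CCl4 counts, and with the remaining ones (added after seeing the data), 1 was called with CCl4 and 1 with JT003 on CCl4, in each case Sult1e1. More genes were called in all with these counts: 1554 between corn oil and CCl4 with the pooled ones and 1703 with the remaining ones. The CCl4 library itself gave 1237.

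The sign turned for Sult1b1 with CCl4 (0.13 with total reads, 0.04 with the remaining CCl4 counts), Sult5a1 with CCl4 (-0.42 with the pooled and -0.70 with the remaining counts), Sult5a1 with JT003 on CCl4 (0.18, remaining counts), Sult1e1 with JT003 on CCl4 (0.04, total reads) and Sult1a1 between CCl4 plus JT003 and corn oil (0.26, total reads). With FPKM plus 0.1 as the measure, Sult1b1 with CCl4 was at 0.14 and Sult1a1 between CCl4 plus JT003 and corn oil at 0.27. The cause of these turns was not tested. Depth limits Sult1e1, Sult2a1 and Sult3a1, which had at most 11 counts per library. Without replicates, every call rests on counting error alone.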
